A study of Mus musculus with 6 samples.

Results

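The mitochondrial carriers are the genes described here: every symbol in the deposited table that begins with Slc25a, together with Mpc1 and Mpc2, which encode the subunits of the mitochondrial pyruvate carrier. The rule found 45 genes among the 14669 rows of the table. They were read in 6 liver libraries; the mice were male C57BL/6J wild types, aged 8 weeks. All mice had received 25 µg of pLKO plasmid by hydrodynamic injection in 2.5 ml saline (a large, fast injection that drives DNA into liver cells), and concanavalin A (ConA, a lectin that activates T cells and causes acute hepatitis) at 15 mg/kg intravenously on day 3, and livers were taken 6 h after it. The plasmid carried a scrambled hairpin in 3 libraries (Sc3, Sc4 and Sc5) and a hairpin against Bicd2, a dynein adaptor, in the other 3 (sh1, sh3 and sh6). Values listed by library keep this order, Sc3 to Sc5 for scramble and sh1 to sh6 for shBicd2. The comparison asks how the carrier transcripts differed between these plasmids during hepatitis. No library without ConA was analysed here, so the response to ConA itself is not part of the comparison.

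The inner mitochondrial membrane is closed to most charged metabolites, and most SLC25 proteins are carriers that let them through. Each folds into a barrel of repeated modules with a single substrate site that opens to one side at a time, and most exchange one metabolite for another. In hepatocytes they join cytosolic and mitochondrial pathways: ADP/ATP exchange for respiration, ornithine and aspartate for the urea cycle, malate and citrate for gluconeogenesis and lipid synthesis, and carnitine esters for fatty acid oxidation. The pyruvate carrier belongs to a separate protein family and feeds pyruvate to the same matrix.

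The libraries held about 16030000 to 18930000 counted reads, as read from the steps in the values, and the 2 groups overlapped in depth. Bicd2 itself was at 3.13 to 4.14 FPKM (fragments scaled to gene length and to the library's counted fragments) in scramble and 2.57 to 3.62 FPKM in shBicd2, with overlap (two-sided exact permutation p = 0.4; with 3 against 3 no p under 0.1 is possible), so the groups rest on the labels alone. Whether the libraries are separate animals is not stated, so the p-values cover the spread of these 6 libraries alone, and that may be technical. Library sh1 stood apart: it was the highest or lowest of the 6 libraries for 62.9% of all genes tested and for 23 of 36 tested carriers (63.9%). All 8 hepatocyte markers were present, with Alb at 15370 to 26210 FPKM, and none of the 5 striated muscle markers was listed. The shBicd2 mean was lower for 4 of the 8 hepatocyte markers and higher for 4. Of these, 2 (Apoa1 and Ttr) lay above scramble in every shBicd2 library, as did 5.7% of all genes tested. The summed level of the 6 endothelial markers was 23.9 to 31.1 FPKM in scramble and 15.3 to 18.9 FPKM in shBicd2, that of the 6 stellate cell markers 37.4 to 46.97 and 26.7 to 30.3 FPKM, that of the 7 macrophage and Kupffer cell markers 46.6 to 67.6 and 26.6 to 44.97 FPKM, and that of 3 of 4 cholangiocyte markers 8.14 to 13.2 and 3.51 to 6.76 FPKM (Krt19 was not listed), all without overlap. These sums mix directions: the shBicd2 mean was lower for 3 of 6 endothelial (Cdh5, Lyve1 and Pecam1, with Clec4g, Stab2 and Kdr higher), 6 of 6 stellate, 6 of 7 macrophage and 2 of 3 cholangiocyte markers, and 3, 2, 2 and 1 of them lay below scramble in every shBicd2 library. Of all genes tested, 18.7% lay below scramble in every shBicd2 library. The summed level of the 6 neutrophil markers was 359.4 to 486.5 FPKM in scramble and 145.5 to 412.5 FPKM in shBicd2, with overlap. The shBicd2 mean was lower for 6 of 6 of them, and 3 (Cxcr2, Ly6g and Csf3r) lay below scramble in every shBicd2 library. For 7 of 8 T and NK cell markers (Trac was not listed) the sums were 6.37 to 9.67 and 6.24 to 8.23 FPKM, with overlap. Of these 7 the shBicd2 mean was lower for 2 and higher for 5, and only 2 entered the test. In every shBicd2 library 1 of the 7 lay below scramble and 1 above. In whole liver, fewer cells of a type and less RNA per cell cannot be told apart. The part of these cell types in the carrier values was not tested.

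The 45 carriers ranged from below 0.1 FPKM to above 100 FPKM. Slc25a5, the ADP/ATP carrier ANT2, was highest, followed by Slc25a47, a liver-enriched member, Slc25a15, the ornithine carrier of the urea cycle, Slc25a39, a glutathione carrier, and Slc25a51, the NAD carrier. These 5 genes held 55.4% to 56.7% of the summed carrier FPKM in the scramble libraries and 46.3%, 60.8% and 57.4% in sh1, sh3 and sh6. The summed level itself was 955.4, 902.6 and 976.2 FPKM in scramble and 838.5, 919.1 and 978.5 FPKM in shBicd2. The sums of the groups overlapped. A group of 36 carriers had a mean of at least 1 FPKM and entered the test, on 25 to 11694 reads per value. The other 9 (Slc25a14, Slc25a18, Slc25a27, Slc25a29, Slc25a35, Slc25a36, Slc25a40, Slc25a43 and Slc25a53) rested on 1 to 131 reads per value. Slc25a29 and Slc25a47 lie head to head on chromosome 12 with 162 bases between them, yet stood at 0.910 and 128.1 FPKM in the scramble mean.

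**Figure D1:**
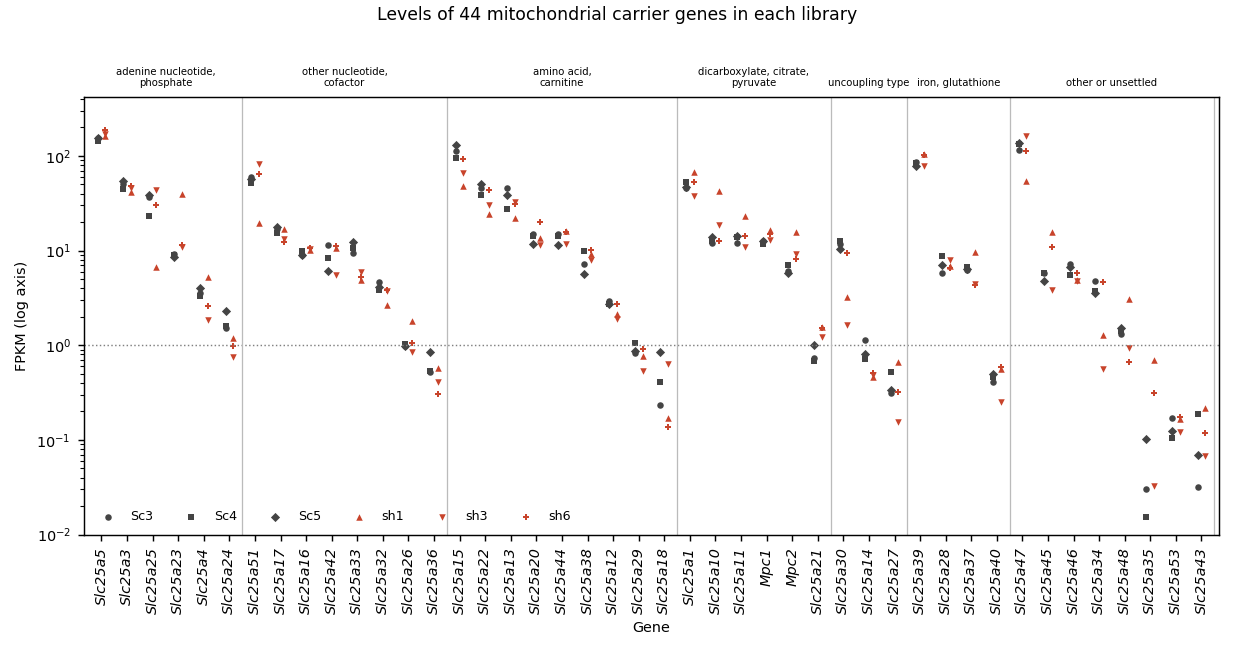
FPKM of 44 of the 45 carriers (log axis) in the 3 scramble libraries (dark grey) and the 3 shBicd2 libraries (red), grouped by substrate; the dotted line is 1 FPKM and each point is 1 library. Slc25a5 is the highest carrier, at 144.0 to 188.6 FPKM, and sh1 lies away from the other libraries for Slc25a25, Slc25a23, Slc25a51 and Slc25a10.

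None of the 36 tested carriers passed an adjusted p of 0.05 in limma, as for all genes tested (0% of 10152), and the voom fit of recovered reads called 0 carriers too. Leaving out sh3 gave 2 carriers (5.56%, against 2.85% of all genes), Slc25a33 and Slc25a45, and array weights gave 8 (22.2%, against 26.7% of all genes). At an unadjusted p below 0.05 there were 2 carriers higher in shBicd2, Slc25a21 and Mpc2, against 2.97% of all genes tested. There were 4 lower, Slc25a33, Slc25a30, Slc25a15 and Slc25a24, against 12.7% of all genes. Voom gave the same counts, 2 higher and 4 lower, while the 6 (16.7%, against 15.7% of all genes) became 3 without Sc3 (8.33% against 8.25%) or without Sc5 (8.33% against 8.2%) and 11 without sh1 (30.6% against 17.5%). Slc25a21 and Slc25a24 passed the filter of 1 FPKM only through the group where each is high. Their place in these counts, and among the 8 with array weights, thus supports nothing. Without them there were 1 higher and 3 lower among 34 at the unadjusted p in the main fit. All 3 shBicd2 values lay above all 3 scramble values for Slc25a5, Slc25a16, Slc25a21, Slc25a23, Mpc1 and Mpc2 (6 carriers, or 16.7%, against 5.7% of all genes tested). They lay below for Slc25a12, Slc25a15, Slc25a24, Slc25a30, Slc25a32 and Slc25a33 (6, or 16.7%, against 18.7%). In all, 33.3% of the tested carriers did not overlap between groups, against 24.4% of all genes; without Slc25a21 and Slc25a24 the counts were 5 above and 5 below. The median log2 fold change, on log2(FPKM + 1) and taken as shBicd2 minus scramble, was -0.02 for the carriers and -0.06 for all genes tested. Of the carriers 17 were positive and 19 negative, and of all 10152 genes tested 4208 were positive. The share of carriers lower in shBicd2 was near that of all genes on both counts. The 6 above depend on the scale: the summed FPKM of all rows was itself higher in every shBicd2 library, and after dividing by it Slc25a5, Slc25a16 and Mpc1 overlapped, which left 3 above (8.33%, against 3.56% of all genes) and 7 below (19.4%, against 24.8%).

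**Figure D2:**
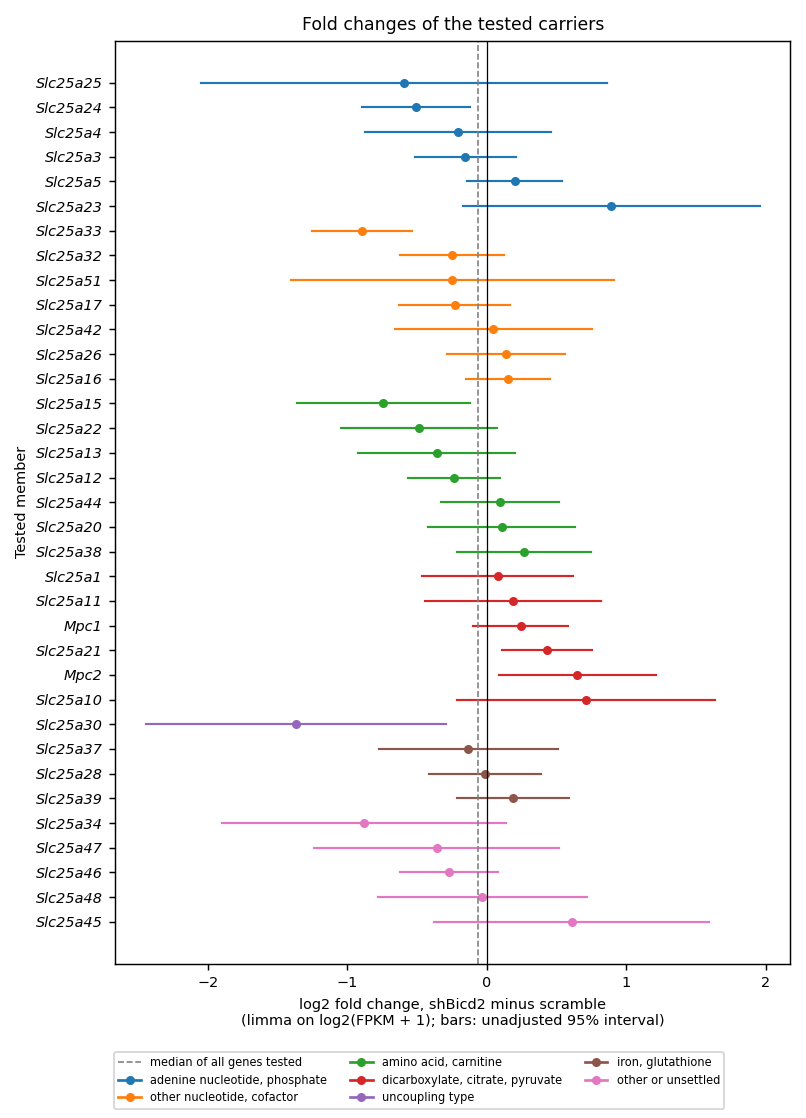
Log2 fold change of 35 of the 36 tested carriers (point; limma on log2(FPKM + 1), shBicd2 minus scramble) with its unadjusted 95% interval (bar), coloured by substrate group; the dashed line is the median of all genes tested, -0.06. The 6 dicarboxylate, citrate and pyruvate carriers all lie above 0 (5 of 6 on the TPM scale), Slc25a30 and Slc25a33 lie farthest below it among those whose interval leaves out 0, and no carrier passed after adjustment. Slc25a21, 1 of these 6, reached the filter of 1 FPKM only through its shBicd2 values, and Slc25a24 only through its scramble values.

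The promoter windows of 4 of these 6 carriers are shown because these genes are among the 6 carriers of smallest p, of which Slc25a21 and Slc25a24 are described without a test; RefSeq (GRCm38.p6) gave the sequences, and the windows of Mpc2 and Slc25a15 run into annotated exons and are not printed. Each is the strand of the gene, 5′ to 3′, from 250 bases before the annotated start to the base before it. Capitals mark matches, on either strand, to the 7 motifs searched, and only the E-box CACGTG, the CCAAT box CCAAT and the GC box GGGCGG were found in these 4. The windows are chr4:149774268-149774517 (minus strand) for Slc25a33, chr14:75787038-75787287 (minus strand) for Slc25a30, chr3:109122899-109123148 (plus strand) for Slc25a24 and chr12:57197473-57197722 (minus strand) for Slc25a21.
Slc25a33: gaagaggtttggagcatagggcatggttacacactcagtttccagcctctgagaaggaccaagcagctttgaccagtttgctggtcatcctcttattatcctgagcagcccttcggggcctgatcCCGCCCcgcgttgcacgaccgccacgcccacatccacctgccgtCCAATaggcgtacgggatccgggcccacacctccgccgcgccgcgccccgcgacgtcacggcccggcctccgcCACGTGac
Slc25a30: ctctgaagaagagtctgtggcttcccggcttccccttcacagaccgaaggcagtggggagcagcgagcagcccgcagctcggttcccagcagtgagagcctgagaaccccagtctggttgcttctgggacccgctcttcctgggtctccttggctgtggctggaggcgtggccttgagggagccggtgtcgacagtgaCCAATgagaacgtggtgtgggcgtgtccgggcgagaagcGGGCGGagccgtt
Slc25a24: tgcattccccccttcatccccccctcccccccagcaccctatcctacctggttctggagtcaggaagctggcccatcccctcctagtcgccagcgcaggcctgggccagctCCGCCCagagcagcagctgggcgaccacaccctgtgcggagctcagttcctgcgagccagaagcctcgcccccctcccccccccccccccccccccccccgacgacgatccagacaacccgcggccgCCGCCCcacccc
Slc25a21: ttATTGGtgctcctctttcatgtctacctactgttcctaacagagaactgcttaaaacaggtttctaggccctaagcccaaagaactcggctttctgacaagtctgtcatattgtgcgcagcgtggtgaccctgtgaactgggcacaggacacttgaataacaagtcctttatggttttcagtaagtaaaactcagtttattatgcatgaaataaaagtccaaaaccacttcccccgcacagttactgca

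The other motifs searched were the cyclic AMP response element TGACGTCA, the AP-1 site TGANTCA, the C/EBP-ATF response element TGATGNAAT and the NRF1 site; 1 pair of matches to different motifs overlapped among the carriers. A window was found for 36 of the 45 carriers and for 7981 genes of the tested set. These 36 are not the 36 tested carriers. They include carriers below the filter, among them Slc25a14, Slc25a29, Slc25a36, Slc25a40 and Slc25a53, while the comparison set holds tested genes only. The shares below thus compare unlike sets. The CCAAT box was in 18 carrier windows (50% against 37.1% of the tested genes) and the GC box in 25 (69.4% against 60%). The E-box, bound by basic helix-loop-helix factors, was in 5 (13.9% against 8.7%): Slc25a1, Slc25a13, Slc25a14, Slc25a33 and Slc25a36. The AP-1 site was in Slc25a11 and Slc25a13 (5.56% against 4.5%), the cyclic AMP element in Slc25a36 (2.78% against 2.73%), the NRF1 site in Slc25a3 (2.78% against 8.96%), and the C/EBP-ATF element in 0 (against 0.464%). Slc25a33 was the 1 carrier of the 4 printed with an E-box, 8 bases before the start, and its CCAAT box begins 81 bases before it; the last 10 bases of this window are annotated as exon in GENCODE. These are matches of letters and show no binding.

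Among the adenine nucleotide and phosphate carriers, Slc25a5 and Slc25a3 stood near the scramble level, while Slc25a4 and the calcium-regulated ATP-Mg/phosphate carriers varied more between the shBicd2 libraries. Slc25a5 (chrX:36795651-36798807) was at 156.1, 144.0 and 152.7 FPKM in scramble and 161.6, 170.9 and 188.6 FPKM in shBicd2. All shBicd2 values were above the scramble values, by 15.1% in the mean, and the difference did not pass (log2 fold change 0.20 ± 0.14 SE; limma adjusted p = 0.539). Slc25a5 has near-identical processed copies in the genome, so its reads are uncertain. Slc25a4, the ANT1 isoform typical of heart and muscle, was at 3.54, 3.32 and 4.03 FPKM in scramble and 5.28, 1.84 and 2.60 FPKM in shBicd2. The shBicd2 libraries thus lay on both sides of scramble, with sh1 above and the other two below. The ratio of Slc25a5 to Slc25a4 was 37.9 to 44.2 in scramble and 30.6, 92.8 and 72.4 in sh1, sh3 and sh6, overlapping (exact two-sided permutation p = 0.4). Slc25a3, which brings in phosphate for ATP synthesis, was at 51.0, 45.1 and 54.2 FPKM in scramble and 41.1, 45.4 and 48.2 FPKM in shBicd2, again with overlap (adjusted p = 0.659).

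The ATP-Mg/phosphate carriers change the adenine nucleotide content of the matrix by exchanging ATP-Mg for phosphate. Slc25a23 was at 9.10, 9.03 and 8.49 FPKM in scramble and 39.9, 10.97 and 11.6 FPKM in shBicd2. All shBicd2 values were higher, but sh1 alone stood far from the rest (log2 fold change 0.89 ± 0.45 SE, adjusted p = 0.390, and 0.31 without sh1). Slc25a25, a member known as stress-inducible, went the other way in that library: it was at 36.4, 23.4 and 38.7 FPKM in scramble and 6.64, 43.7 and 30.01 FPKM in shBicd2. Its log2 fold change of -0.59 ± 0.62 (SE; adjusted p = 0.678) turned to 0.17 without sh1. Slc25a24 (chr3:109123149-109168457), whose promoter is printed above, was at 1.52, 1.61 and 2.33 FPKM in scramble and 1.197, 0.754 and 0.985 FPKM in shBicd2, on 43 to 128 reads. All of its shBicd2 values were lower, a difference of -46.2% in the mean. The gene reached the filter of 1 FPKM through its scramble values, so this is a description; with no filter its adjusted p was 0.271. The summed stellate, macrophage and endothelial markers given above were also lower in shBicd2, with some single markers higher, and their part in the value of Slc25a24 was not tested. Of the summed FPKM of these 3 paralogs, Slc25a25 held 68.7% to 78.2% in scramble, 78.9% and 70.5% in sh3 and sh6, and 13.9% in sh1, where Slc25a23 held 83.6%. The ratio of Slc25a23 to Slc25a24 was 3.65 to 5.97 in scramble and 33.3, 14.5 and 11.8 in sh1, sh3 and sh6. It was the 1 ratio of the 8 between sister carriers computed for which the groups did not overlap (exact two-sided permutation p = 0.1, the smallest possible, and 0.533 after Benjamini-Hochberg adjustment over the 8); the ratios were chosen after the values were seen.

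Slc25a33 had the smallest p of the family. It encodes a pyrimidine nucleotide carrier, which supplies the matrix with precursors for mitochondrial DNA and RNA. On GRCm38 it lies at chr4:149744036-149774277 on the minus strand. It was at 9.44, 10.7 and 12.3 FPKM in scramble and 4.87, 5.90 and 5.21 FPKM in shBicd2. Here the 3 shBicd2 libraries lay close together and all below scramble, with means of 5.33 ± 0.523 FPKM in shBicd2 and 10.8 ± 1.45 FPKM in scramble (SD, n = 3), a difference of -50.7%. The log2 fold change was -0.90 ± 0.15 (SE; limma adjusted p = 0.152), and it stayed between -1.06 and -0.79 over all 15 alternatives. It passed the threshold without sh3 (adjusted p = 0.0399) and with array weights (adjusted p = 0.0023), fits in which 2.85% and 26.7% of all genes passed. Array weights give libraries that look noisier less say. Here they were 0.18 for sh1, 0.28 for sh3 and 4.67 for sh6, so the shBicd2 side of that fit rested mostly on sh6. Its paralog Slc25a36 was at 0.521, 0.529 and 0.852 FPKM in scramble and 0.571, 0.408 and 0.303 FPKM in shBicd2, with overlap and below the filter.

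The other nucleotide and cofactor carriers showed small or divided differences. Slc25a51, the NAD carrier, was at 60.2, 51.2 and 56.9 FPKM in scramble and 19.3, 82.8 and 63.9 FPKM in shBicd2. Low sh1 and high sh3 bracketed the scramble range, and the log2 fold change of -0.25 became 0.37 without sh1. Slc25a32, a folate and FAD carrier, was at 4.67, 3.88 and 4.10 FPKM in scramble and 2.67, 3.74 and 3.83 FPKM in shBicd2. Its shBicd2 values were all below scramble, sh3 and sh6 only just and sh1 clearly (adjusted p = 0.480). Slc25a16, linked to coenzyme A, was 12.2% higher in shBicd2 with no overlap (adjusted p = 0.597). Slc25a17, which is a peroxisomal carrier, Slc25a42 and Slc25a26 overlapped, with log2 fold changes from -0.23 to 0.14. In this group 4 of 8 tested carriers were positive and 4 negative, with a median of -0.09 against -0.06 for all genes.

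**Figure D3:**
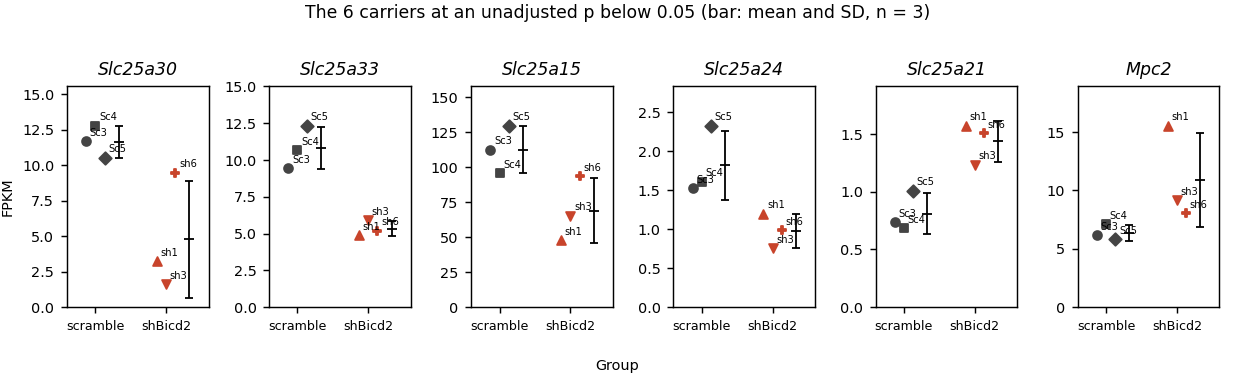
FPKM in each library (axes from 0) for the 6 carriers at an unadjusted p below 0.05, scramble in grey and shBicd2 in red; each bar is the mean with its SD, n = 3. The groups do not overlap in any panel, but the carriers were picked for a small p on these same values, so this supports nothing. Of all genes tested, 24.4% did not overlap. The shBicd2 libraries lie close together for Slc25a33, and sh6 lies next to scramble for Slc25a30 and Slc25a15.

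The amino acid carriers of the urea cycle and of the malate-aspartate shuttle had lower means in shBicd2, and Slc25a15, Slc25a22 and Slc25a13 were lowest in sh1. Slc25a15 (chr8:22375551-22398597) moves ornithine in and citrulline out of the matrix and was at 112.4, 95.7 and 129.6 FPKM in scramble and 47.7, 65.3 and 93.5 FPKM in shBicd2. All shBicd2 values lay below scramble, sh6 only just, and the means were 112.6 ± 16.9 FPKM (SD, n = 3) with the scrambled hairpin and 68.8 ± 23.2 FPKM with shBicd2, a difference of -38.9%. The log2 fold change was -0.74 ± 0.26 (SE; limma adjusted p = 0.248), -0.99 without sh6 and -0.51 without sh1. Slc25a22, a glutamate carrier, was at 45.3, 38.5 and 50.8 FPKM in scramble and 24.1, 30.2 and 43.1 FPKM in shBicd2. Only sh6 reached the scramble range (adjusted p = 0.374). Slc25a13, the aspartate/glutamate carrier citrin, was at 45.5, 27.8 and 39.0 FPKM in scramble and 22.2, 32.97 and 31.0 FPKM in shBicd2, with overlap (adjusted p = 0.499). Its paralog Slc25a12 was at 2.92, 2.73 and 2.74 FPKM in scramble and 2.13, 1.88 and 2.70 FPKM in shBicd2, with all shBicd2 values lower (adjusted p = 0.450). The ratio of Slc25a13 to Slc25a12 was 13.4 ± 2.82 and 13.2 ± 3.85 (SD, n = 3; exact permutation p = 1).

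The other 3 tested carriers of the group, Slc25a20, Slc25a44 and Slc25a38, had positive log2 fold changes, while Slc25a29 and Slc25a18, below the filter, had lower means in shBicd2 with overlap. Slc25a20, which takes acylcarnitines in for fatty acid oxidation, was at 14.8, 14.3 and 11.6 FPKM in scramble and 13.6, 11.4 and 20.1 FPKM in shBicd2. High sh6 set the sign of its log2 fold change, 0.11, which was -0.11 without it. Slc25a44, for branched-chain amino acids, and Slc25a38, for glycine, were 7.31% and 20.9% higher with overlap. Of the 7 tested carriers of the group 3 were positive and 4 negative, with a median of -0.24. The summed FPKM of the group was 244.2, 204.4 and 252.6 in Sc3, Sc4 and Sc5 and 135.8, 162.7 and 217.4 in sh1, sh3 and sh6, so that sh6 lay inside the scramble range and the other two below it.

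All 6 dicarboxylate, citrate and pyruvate carriers had a positive fold change, except for Slc25a1 on the TPM scale, and for all 6 sh1 was the highest library, as it was for 34.1% of all genes tested. Their median log2 fold change was 0.34. Without sh1 it was 0.21, with 4 of the 6 positive. These counts and medians include Slc25a21, which reached the filter of 1 FPKM only through its shBicd2 values. With a mean of at least 5 FPKM, which leaves Slc25a21 out, all 5 tested were positive. Their median was then 0.24, against -0.05 for all genes. Of all 10152 genes tested, 4208 were positive in the main fit. Mpc2 (chr1:165460637-165481214), a subunit of the pyruvate carrier, was at 6.15, 7.11 and 5.81 FPKM in scramble and 15.5, 9.16 and 8.05 FPKM in shBicd2. All shBicd2 values were above scramble, by 71.8% in the mean (log2 fold change 0.65 ± 0.24 SE; limma adjusted p = 0.265), and by 0.39 on the log2 scale without sh1. Its partner Mpc1 was at 12.8, 11.8 and 12.5 FPKM in scramble and 16.4, 13.1 and 15.1 FPKM in shBicd2. These were also all higher, by 20.2% (adjusted p = 0.449). The ratio of Mpc1 to Mpc2 was 1.96 ± 0.264 in scramble and 1.05, 1.43 and 1.88 in sh1, sh3 and sh6, with overlap (exact permutation p = 0.2).

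Slc25a21 (chr12:56712634-57197472), a carrier of oxoadipate from lysine and tryptophan breakdown, was at 0.738, 0.687 and 1.011 FPKM in scramble and 1.57, 1.24 and 1.51 FPKM in shBicd2, on 60 to 140 reads. All shBicd2 values were higher, by 77.1% in the mean. The gene reached the filter of 1 FPKM through its shBicd2 values, so this too is a description; with no filter its adjusted p was 0.254. Slc25a10, the dicarboxylate carrier, which exports malate for gluconeogenesis, was at 11.99, 12.8 and 13.96 FPKM in scramble and 42.6, 18.7 and 12.6 FPKM in shBicd2. Library sh1 was far above scramble, sh3 moderately above it and sh6 within its range, and the log2 fold change of 0.71 ± 0.39 (SE; adjusted p = 0.420) was 0.24 without sh1. Slc25a11, the oxoglutarate/malate carrier of the malate-aspartate shuttle, was at 12.1, 13.8 and 14.3 FPKM in scramble and 23.4, 10.8 and 14.2 FPKM in shBicd2. Slc25a1, which exports citrate for lipid synthesis, was at 46.1, 53.6 and 47.3 FPKM in scramble and 68.3, 37.8 and 53.4 FPKM in shBicd2. For both, sh1 was highest and sh3 lowest of all 6 libraries, and the positive log2 fold changes of 0.19 and 0.08 were negative without sh1.

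Of the uncoupling-type carriers, relatives of the uncoupling proteins that pass protons or anions, Slc25a30 was the 1 tested. It lies at chr14:75760117-75787037 on the minus strand and was at 11.7, 12.8 and 10.5 FPKM in scramble and 3.23, 1.63 and 9.45 FPKM in shBicd2. The shBicd2 values were all lower, but sh6 stood next to scramble, and the means were 11.7 ± 1.13 FPKM (SD, n = 3) with the scrambled hairpin and 4.77 ± 4.13 FPKM with shBicd2. The log2 fold change, -1.37 ± 0.46 (SE; limma adjusted p = 0.229), was the most negative of the family and ran to -1.92 without sh6 and to -0.43 with array weights. Slc25a14 was at 1.14, 0.708 and 0.818 FPKM in scramble and 0.463, 0.484 and 0.514 FPKM in shBicd2, all lower, on 19 to 48 reads; it was below the filter, and with no filter its adjusted p was 0.268. Slc25a27 was at 0.153 to 0.668 FPKM, with overlap. Ucp2, an uncoupling protein under its own symbol and thus no member, was at 5.18, 5.67 and 6.68 FPKM in scramble and 8.66, 2.55 and 3.70 FPKM in shBicd2, with sh1 above scramble and the other two below (adjusted p = 0.686).

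The iron and glutathione carriers overlapped between the groups throughout. Slc25a39, a glutathione carrier of the matrix, was at 86.5, 84.4 and 78.6 FPKM in scramble and 105.4, 78.6 and 102.5 FPKM in shBicd2. Slc25a37, mitoferrin 1, the iron carrier of red cell precursors, was at 6.25, 6.74 and 6.39 FPKM in scramble and 9.68, 4.47 and 4.37 FPKM in shBicd2. Its sh1 value was above the narrow scramble range and the other two were below it, the reverse order to the summed level of 6 of 7 erythroid markers (Hbb-bs was not listed), which were at 64.5 to 81.5 FPKM in scramble and 32.1, 74.2 and 77.9 FPKM in shBicd2. The log2 fold change of Slc25a37, -0.13 ± 0.27 (SE; adjusted p = 0.839), was -0.46 without sh1. Slc25a28, mitoferrin 2, had a log2 fold change of -0.01 ± 0.17 (SE).

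Among the tested carriers of other or unsettled substrate, the library farthest from the scramble mean was sh1 for Slc25a47, Slc25a45 and Slc25a48. It was sh3 for Slc25a46 and Slc25a34. Slc25a47 was at 114.1, 134.3 and 136.0 FPKM in scramble and 54.0, 160.9 and 112.8 FPKM in shBicd2. The low sh1 and the high sh3 lay on either side of scramble (log2 fold change -0.36 ± 0.37 SE, and 0.08 without sh1). Slc25a34 was at 4.80, 3.76 and 3.57 FPKM in scramble and 1.29, 0.563 and 4.63 FPKM in shBicd2, low in sh1 and sh3 and within the scramble range in sh6 (adjusted p = 0.378). Slc25a46, an outer membrane member tied to mitochondrial shape, was at 7.15, 5.56 and 6.69 FPKM in scramble and 4.94, 4.77 and 5.83 FPKM in shBicd2, with overlap (adjusted p = 0.418). Slc25a45, singled out with its values in view, stood at 5.84, 5.79 and 4.81 FPKM in scramble and 15.6, 3.83 and 10.9 FPKM in shBicd2. The groups overlapped, and the difference did not pass (log2 fold change 0.61 ± 0.42 SE, limma adjusted p = 0.517). Slc25a45 passed the threshold in the fit without sh3, its 1 shBicd2 value below scramble (log2 fold change 1.12, adjusted p = 0.0421). In that fit 2.85% of all genes passed. Slc25a48 was at 1.32, 1.42 and 1.52 FPKM in scramble and 3.05, 0.945 and 0.673 FPKM in shBicd2, with sh1 above scramble and the other two below. Slc25a35 rested on 1 to 47 reads, at 0.0306, 0.0152 and 0.102 FPKM in scramble and 0.700, 0.0327 and 0.316 FPKM in shBicd2.

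**Figure D4:**
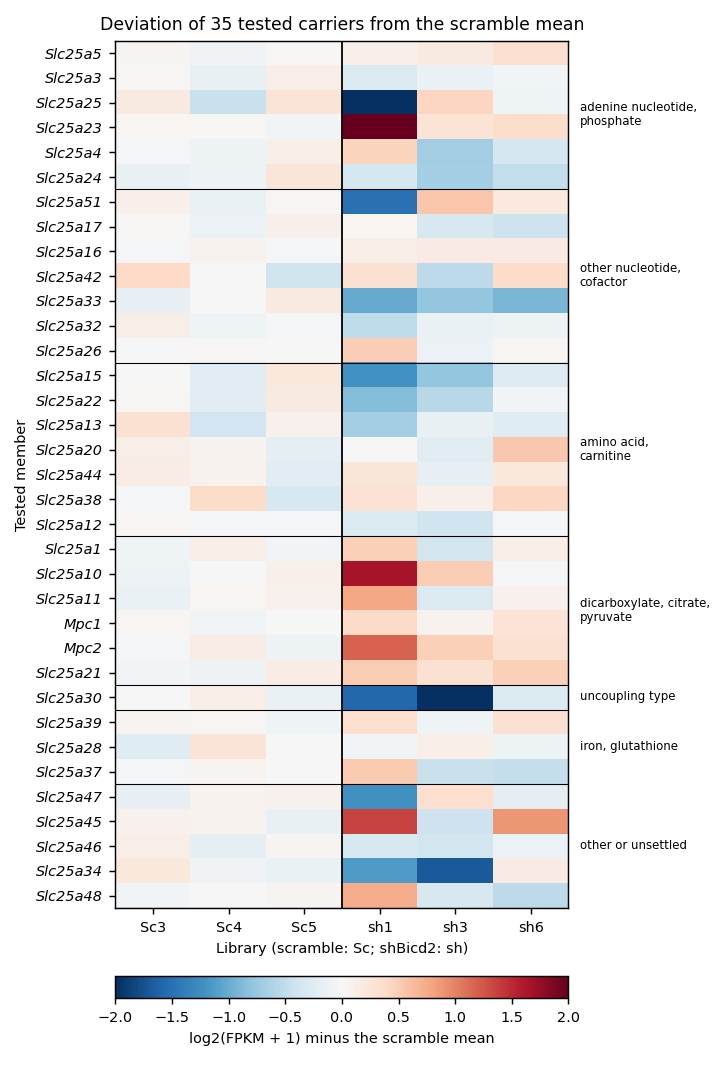
Log2(FPKM + 1) of 35 of the 36 tested carriers in each library minus the scramble mean, in substrate groups; blue is lower, red is higher, and colours saturate at 2 on either side. The column of sh1 is the strongest, with 18 of 36 carriers beyond 0.5, against 10 in sh3 and 4 in sh6.

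The 3 shBicd2 libraries did not share one pattern. In sh1 18 of the 36 tested carriers (50%, against 38.8% of all genes tested) lay more than 0.5 from the scramble mean on the log2 scale, in sh3 10 (27.8% against 16.7%) and in sh6 4 (11.1% against 17.6%). Without sh1, all remaining shBicd2 values were above scramble for 7 carriers (19.4%, against 8.69% of all genes) and below for 10 (27.8%, against 27.1%). Without sh3 the counts were 10 above (27.8%, against 20.7%) and 7 below (19.4%, against 25.1%), and without sh6 7 above (19.4%, against 8.05%) and 9 below (25%, against 27%).

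**Figure D5:**
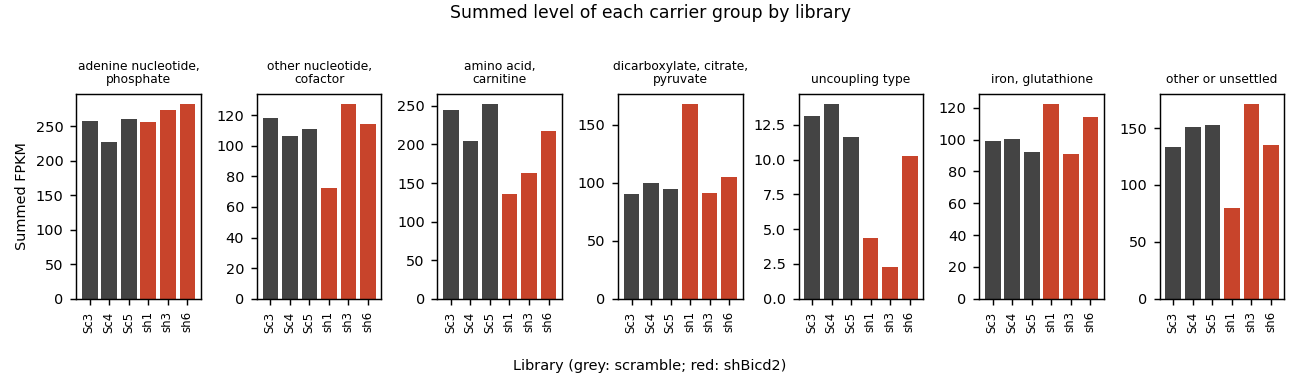
Summed FPKM of each substrate group in each library (bars from 0, each panel with its own scale; grey is scramble, red is shBicd2). The dicarboxylate, citrate and pyruvate group is highest in sh1 (167.8 FPKM) and the amino acid and carnitine group lowest there (135.8 FPKM), while the uncoupling-type group is low in sh1 and sh3.

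The genes that work beside the carriers were read from lists made with earlier results known. For the counts of positive genes in these lists, the background is 4208 positive among all 10152 genes tested. Library sh1 was highest for 9 and lowest for 3 of 14 tested import genes, against 34.1% and 28.8% of all genes. The same counts were 15 and 3 of 21 for the ATP synthase list and 12 and 1 of 19 for iron-sulfur and haem. They were 3 and 11 of 19 for pyruvate and shuttle enzymes and 1 and 7 of 14 for fatty acid oxidation. The tricarboxylic acid cycle list had 7 and 7 of 20, and the urea cycle list 4 and 4 of 15. The part of sh1 in these lists was not tested. Of 14 tested genes of the carrier import machinery, which threads carriers through the TOM and TIM22 complexes, 10 were positive, with a median of 0.13 and 0 at an unadjusted p below 0.05; Timm9, an intermembrane chaperone, was 36.2% higher (adjusted p = 0.348), and Tomm7, a small subunit of the TOM complex, 37.9% higher (adjusted p = 0.4). ATP synthase subunits, VDAC pores and partners of the ADP/ATP carrier had 16 of 21 positive, a median of 0.26 against -0.06 for all genes, and 5 higher and 0 lower at that p, where 2.97% of all genes were higher and 12.7% lower. Their summed level was 984.7 to 997.9 FPKM in scramble and 1083 to 1116 FPKM in shBicd2, without overlap. The summed FPKM of all rows was also higher in every shBicd2 library. Atp5o, a stalk subunit of ATP synthase, was at 21.3, 22.0 and 21.4 FPKM in scramble and 32.1, 26.8 and 28.5 FPKM in shBicd2 (adjusted p = 0.236), and Atp5g1, of its c ring, was 53.4% higher (adjusted p = 0.249). None of the lists had a gene past an adjusted p of 0.05.

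Among enzymes on either side of the pyruvate carrier and the malate-aspartate shuttle, Pdk4 and Pdp1 had the smallest p. Pdk4, the kinase that switches off pyruvate dehydrogenase, was at 14.1, 8.43 and 17.1 FPKM in scramble and 0.686, 2.06 and 2.24 FPKM in shBicd2 (log2 fold change -2.42 ± 0.33 SE; limma adjusted p = 0.152). Pdp1, a phosphatase that reverses that step, was also lower in all 3 (-48.9%; adjusted p = 0.199). In this list 1 gene was higher and 3 lower at an unadjusted p below 0.05, against 2.97% and 12.7% of all genes, with 14 of 19 negative and a median of -0.30. Got1 and Got2, the cytosolic and mitochondrial aspartate aminotransferases, were the other two: Got1 differed by -51.4% (adjusted p = 0.247) and Got2 was 28.1% higher (adjusted p = 0.314), each without overlap.

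In the urea cycle and ornithine list 1 of 15 genes was higher and 3 lower at that p; for this list and those that follow, the shares of all genes are again 2.97% and 12.7%. Otc, which uses the ornithine that Slc25a15 brings in, was at 44.0, 58.2 and 51.8 FPKM in scramble and 64.9, 86.5 and 68.4 FPKM in shBicd2, 42.7% higher where Slc25a15 differed by -38.9% (adjusted p = 0.263). Odc1, which uses ornithine in the cytosol for polyamines, was at 49.1, 42.5 and 66.6 FPKM in scramble and 13.3, 33.6 and 25.1 FPKM in shBicd2 (adjusted p = 0.1997), and Arg2, the mitochondrial arginase, differed by -60.3% with overlap (adjusted p = 0.244). The tricarboxylic acid cycle list had 14 of 20 positive, 1 higher at that p (Sdhb, of succinate dehydrogenase, 32.1% higher) and 0 lower; Idh2 was 32.4% higher. Of the carnitine and fatty acid oxidation genes 4 of 14 were positive, and Hadh was 50.7% higher (adjusted p = 0.211) while Slc22a5, the plasma membrane carnitine transporter, differed by -40.4% with overlap. Of the iron-sulfur and haem genes 15 of 19 were positive and 1 was higher at that p, Alad, a haem synthesis enzyme, at 18.6, 17.6 and 17.4 FPKM in scramble and 53.7, 25.5 and 27.7 FPKM in shBicd2 (adjusted p = 0.222), while Isca1, an iron-sulfur assembly factor, differed by -28.6% (adjusted p = 0.331). The carrier relatives Mtch1 and Mtch2, outer membrane proteins, overlapped.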

How the data were processed

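Liver RNA of 3 scramble and 3 shBicd2 libraries was sequenced from TruSeq libraries (Illumina NovaSeq, per the labels' protocols). The submitters' processing notes list HISAT2 2.0.5, featureCounts 1.5.0-p3 and mm10. Annotation, strand setting and the handling of multi-mapped reads were not given in the sources used here. FPKM is the unit of the deposited values, scaled by the authors to gene length and counted reads, so a few abundant genes can shift all others. Column names give the group and not the replicate, and there were 0 columns of other samples.

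Values were compared as log2(FPKM + 1) with limma 3.58.1 in R 4.3.3 (eBayes with trend), two-sided, after dropping genes whose mean fell under 1 FPKM, with Benjamini-Hochberg adjustment over the 10152 left. With exon lengths from GENCODE M21 (GRCm38), 98.3% of 14339 matched genes, and all 45 carriers, came out as whole reads (within 0.02 of a read at low counts). The fit was tested on simulated reads drawn with the same spread in every library. That run cannot show how the fit behaves when a library stands apart, as sh1 did. The alternatives were a pseudocount of 0.1, no filter, a mean of at least 5 FPKM, TPM, median-of-ratios and quantile scaling, array weights, eBayes without trend, voom on the recovered reads and leaving out each library. Non-overlap without each shBicd2 library and after division by summed FPKM, and counts without carriers whose mean in 1 group was under the filter, were added after the data were seen. Values by library were planned for the 2 carriers of smallest p and the highest in each substrate group, any carrier past an adjusted p of 0.05, and a panel of 17 carriers. Those of Slc25a12, Slc25a14, Slc25a35, Slc25a36, Slc25a45 and Slc25a48 were added with their values in view. From each related list the 2 genes of smallest p are named, and Got1, Got2 and Otc were added in the same way. The members and lists were chosen with earlier results of these data known. The values of 1 carrier are not reported here, though it stays in the counts, medians and sums. Plots used matplotlib 3.10.9 (Python 3.11.15).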

Additional observations from a re-analysis of the deposited data

How the results depend on the processing

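Across the 15 alternatives the count of carriers past an adjusted p of 0.05 stayed at 0, except with array weights (8, or 22.2%, against 26.7% of all genes) and without sh3 (leaving out 1 library gave 0 to 2; 2 are 5.56%, against 2.85% of all genes). The count at an unadjusted p below 0.05 was 14 with array weights (38.9%, against 41.2% of all genes), 3 to 11 when 1 library was left out (3 without Sc3 or Sc5, 8.33% against 8.25% and 8.2% of all genes; 11 without sh1, 30.6% against 17.5%) and 4 to 7 otherwise. Array weights gave sh6 4.67, sh3 0.28 and sh1 0.18, so the shBicd2 side of that fit rested mostly on sh6. That fit took Slc25a33, Slc25a21, Slc25a24, Slc25a37, Slc25a5, Slc25a45, Slc25a48 and Slc25a17 past the threshold. Of these, Slc25a21 and Slc25a24 entered the test only through the group where each is high, so their place in that count supports nothing. Without sh3, Slc25a33 and Slc25a45 passed. The median log2 fold change of the carriers ran from -0.133 on the TPM scale to 0.075 without sh3; that of all genes ran from -0.162 (TPM) to 0.026 (quantile). Of the 36 tested carriers 23 kept 1 sign in every setting, 11 positive and 12 negative. Among the 13 others, Slc25a26, Slc25a28, Slc25a42, Slc25a44 and Slc25a48 turned within -0.45 to 0.33. The sign also turned for Slc25a1 on the TPM scale (-0.016) and without sh1 (range over libraries left out -0.120 to 0.299), for Slc25a11 without sh1 (-0.101 to 0.425), Slc25a20 without sh6 (-0.111 to 0.273), Slc25a25 without sh1 (-1.104 to 0.171), Slc25a37 without sh3 (0.022) or sh6 (-0.461 to 0.036), Slc25a4 without sh3 (-0.529 to 0.043), Slc25a47 without sh1 (-0.703 to 0.076), and Slc25a51 with array weights (0.116) and without sh1 (-0.649 to 0.373). The cause was not tested. No paired analysis was possible because the columns carry no replicate number that matches the labels. Carriers at 1 to 131 reads per value are limited by depth.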
